A study of Mus musculus with 12 samples.

Results

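Interferon-stimulated genes were followed in mouse embryonic stem cells labelled as Id1 knockouts and in the same cells after knockdown of Zrf1. The 37 genes were chosen by name as known interferon-stimulated genes, with earlier results of these data known. All 37 were found among the 36406 gene names of the array, with 47 of its 55681 probes. Type I and type II interferons bind cell-surface receptors whose Janus kinases phosphorylate STAT proteins. A complex that holds STAT2 and IRF9 then binds the interferon-stimulated response element (ISRE) in target promoters, and the gamma-activated site (GAS) is the element of the type II response. The products of the target genes sense viral RNA, block translation, degrade RNA, attack vacuoles or restrict entry of viruses, and pluripotent cells are known for a weak response to interferon.

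RNA was measured on 12 single-colour arrays, 4 for each of 3 groups: Id1KO_Zrf1KD, Id1KO and WT. WT and Id1KO are embryonic stem cell lines, with Id1KO labelled as an Id1 knockout, and both came from another laboratory. Id1KO_Zrf1KD are Id1KO cells that carry lentiviral vectors with hairpins against Zrf1 and were selected with puromycin. All groups grew in medium with fetal bovine serum and leukaemia inhibitory factor, and by the labels each group consists of 4 separately obtained biological samples. No knockout cells with a control hairpin were analysed here, so knockdown, transduction and selection cannot be told apart. Other differences between the WT and Id1KO lines likewise cannot be told apart from the knockout.

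Levels are log2 of the processed spot signal minus the 75th percentile of the same array, so a level of 0 is a bright gene and a level near -5 is close to background. Dnajc2, the array's name for Zrf1, was 4.47-fold lower in Id1KO_Zrf1KD than in Id1KO (level -0.27 against 1.89; limma adjusted p = 9.7e-10). Id1 lay at 1.23 in Id1KO and 0.86 in WT (adjusted p = 0.052), and its probe does not check the knockout, because the labels do not say which bases were deleted. All 8 embryonic stem cell markers, among them Pou5f1, Nanog and Sox2, were well above background on every array. The 75th percentile was 554.0 to 596.5 units in Id1KO_Zrf1KD, 393.3 to 491.8 in Id1KO and 440.7 to 550.2 in WT. The arrays came from 3 slides that each held all groups, and precision rests on 4 arrays a group.

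Many of the 37 genes were near background in WT and measurable in the mutant cells. On all 4 arrays of a group, 35 genes (94.6%) were well above background in Id1KO_Zrf1KD, 31 (83.8%) in Id1KO and 25 (67.6%) in WT. Over all gene names of the array these shares were 57.9%, 57.2% and 58.1% in the same order of groups. In WT, Usp18, Ifih1, Oasl2, Ifit1, Ifit3, Mx1 and Gbp3 were not well above background on any array, and Mx2, Gbp2, Irgm1, Rtp4 and Ifi44 were so on some arrays. In Id1KO the first set was Ifit1, Ifit3 and Mx1, and in Id1KO_Zrf1KD it was Mx1. Mx1, a dynamin-like GTPase, and Ifit1, an RNA cap-binding protein, had no probe that passed the filter on dim signal and were not tested. Ifit1 was well above background on 3 of 4 Id1KO_Zrf1KD arrays, with a median level of -4.10, and on no Id1KO or WT array.

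In Id1KO cells 19 of the 35 tested genes were higher than in WT and 11 were lower, and the increases were larger. By fitted values, 15 of these were at least 2-fold higher and 2 at least 2-fold lower. The 15 include Ifit3, not well above background in either group, and Ifih1, whose lower bound was 1.69-fold. Among all 22593 genes tested, 42.5% were called higher and 29.6% lower, and 12.2% and 7.46% were so by at least 2-fold, against 54.3%, 31.4%, 42.9% and 5.71% of the 35. The median log2 fold change was 0.43 over the 35 genes and 0.15 over all genes, and with quantile normalization, which moves the median of all genes to 0.02, it was 0.32 over the 35. A gene that passed the filter only because it was bright in the mutant cells had to differ, so the counts were also taken over the 24 genes well above background on all 12 arrays. Of those, 10 were higher and 11 lower in Id1KO than in WT, with a median of -0.13, beside 43.5% higher and 31.5% lower and a median of 0.13 over all genes of that kind. With the normexp background correction, which compresses dim values, 9 genes were at least 2-fold higher and 1 at least 2-fold lower.

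After the knockdown the 35 genes went both ways. In Id1KO_Zrf1KD 15 were higher and 12 lower than in Id1KO (42.9% and 34.3%), where 32.3% and 39.8% of all genes were. At least 2-fold, 8 were higher and 2 lower (22.9% and 5.71%), where 7.17% and 13.2% of all genes were, and the medians were 0.05 and -0.09. Over the 24 genes measurable on every array 9 were higher and 11 lower, beside 33.9% and 40.6% of all such genes. Of these 24, 2 were at least 2-fold higher and 2 at least 2-fold lower (8.33% each), beside 5.47% and 10.9% of all such genes. Over the 35 genes, the count at least 2-fold higher was 3 with the normexp correction and also 3 with the authors' deposited values. Fibroblast markers were higher after the knockdown: 12 of 12 were called higher than in Id1KO, while 8 were lower and 1 higher in Id1KO than in WT, and their summed linear level was 222.8 to 225.9 times the 75th percentile in Id1KO_Zrf1KD, 91.3 to 94.5 in Id1KO and 116.6 to 127.4 in WT, with Lum not above background in Id1KO or WT. Of the 9 tested leukocyte markers 7 were higher in Id1KO_Zrf1KD than in Id1KO and 2 lower, and the same counts held in Id1KO against WT. Their sums did not follow these counts after the knockdown, with values of 8.25 to 9.05 in Id1KO_Zrf1KD, 13.6 to 15.9 in Id1KO and 8.10 to 9.02 in WT. The 2 markers lower after the knockdown were Itgam (level 2.16 against 3.57 in Id1KO) and Csf1r (0.35 against 0.92). They were the brightest of the 9 and made up most of these sums. Ptprc, the pan-leukocyte marker, was well above background on no WT array, 1 Id1KO array and 2 Id1KO_Zrf1KD arrays, and was not tested. The part of these cell type markers in the results was not tested, and fewer cells of a type and less RNA per cell cannot be told apart in such samples.

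Against WT, the knockdown cells had 21 genes higher and 8 lower (60.0% and 22.9%), where 32.4% and 32.2% of all genes were. At least 2-fold, 14 were higher and 3 lower (40.0% and 8.57%), beside 9.04% and 8.87% of all genes, and the medians were 0.39 and -0.02. Over the 24 genes measurable on every array 10 were higher and 8 lower, beside 33.1% and 32.5% of all such genes. Of these 24, 3 were at least 2-fold higher and 3 at least 2-fold lower (12.5% each), beside 6.58% and 6.63% of all such genes. The larger count of genes at least 2-fold higher was thus not seen among these 24. Over all the interferon-stimulated genes tested, the count at least 2-fold higher was 8 with the normexp correction and 8 with the deposited values. The comparisons share samples, so they are not independent of each other. Within each of the 3 slides every called gene kept the sign of its difference, which held for 30 genes in Id1KO against WT, 27 in Id1KO_Zrf1KD against Id1KO and 29 in Id1KO_Zrf1KD against WT. The genes were called on these same arrays, so this agreement is not independent of the calls.

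**Figure D1:**
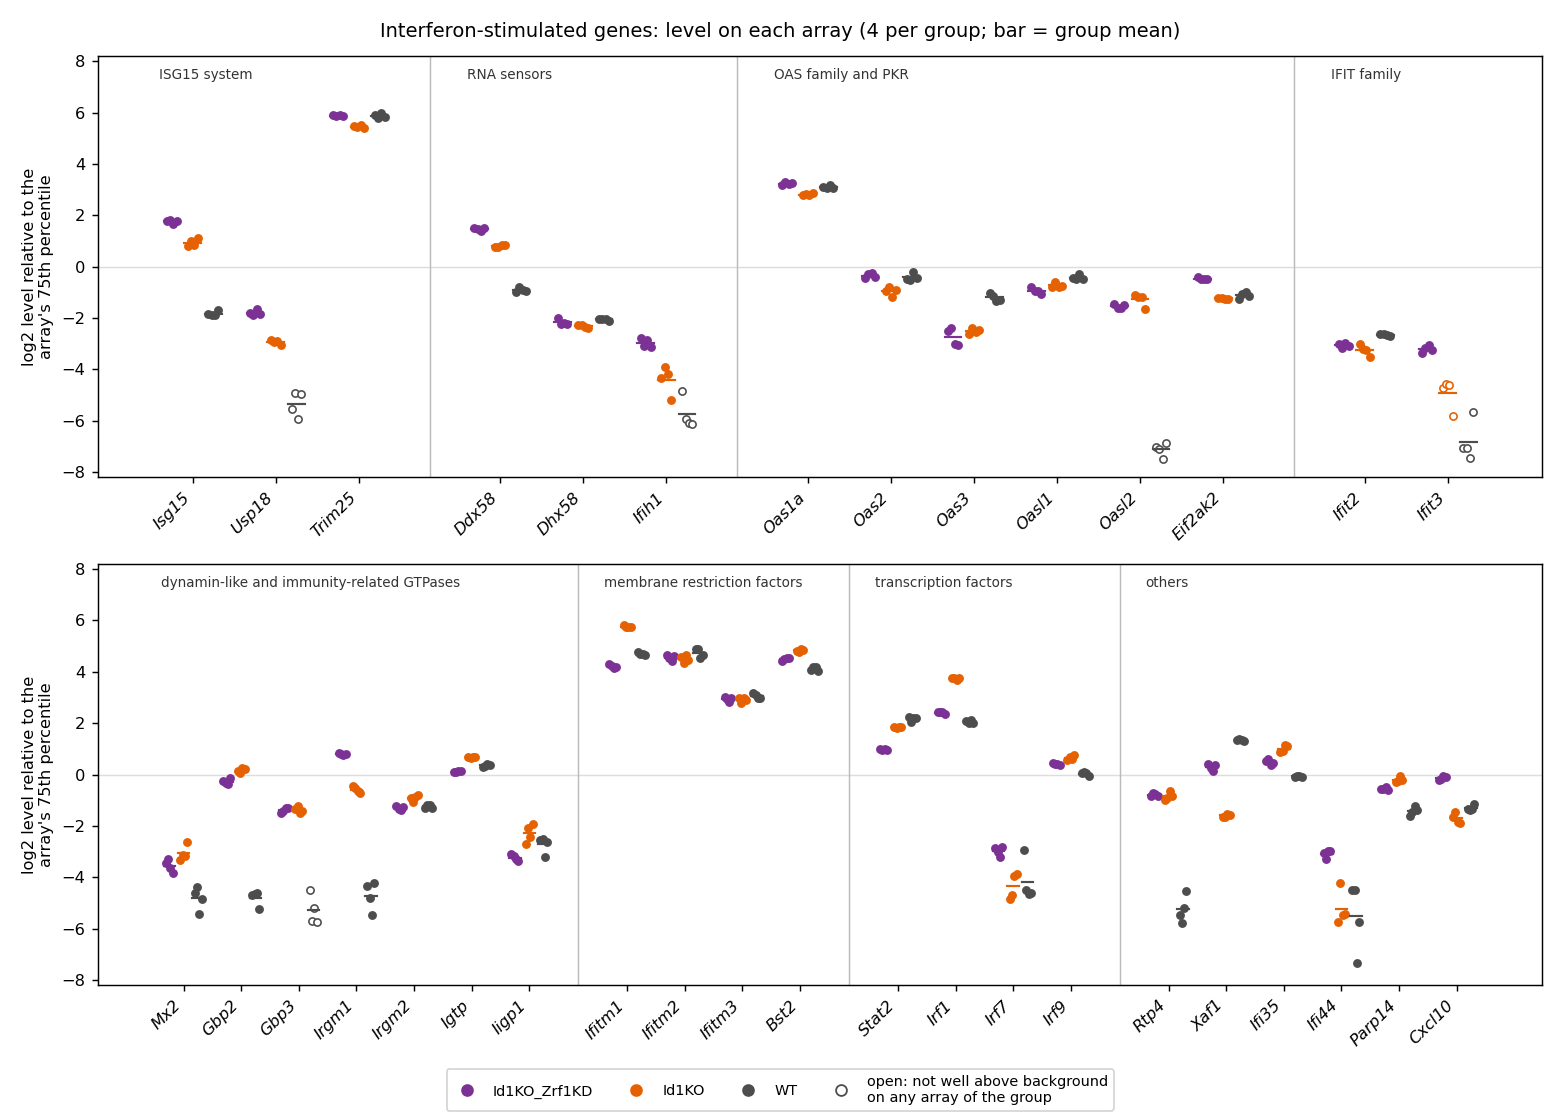
Level of the 35 tested interferon-stimulated genes on each array (y axis, log2 units relative to the array's 75th percentile), by role, with Id1KO_Zrf1KD left, Id1KO in the middle and WT right for each gene. Points are arrays and bars group means, and open points mark groups in which no array was well above background. Oasl2, Gbp2, Gbp3, Irgm1 and Rtp4 lie far lower in WT than in Id1KO_Zrf1KD and Id1KO, while Xaf1 lies highest in WT.

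**Figure D2:**
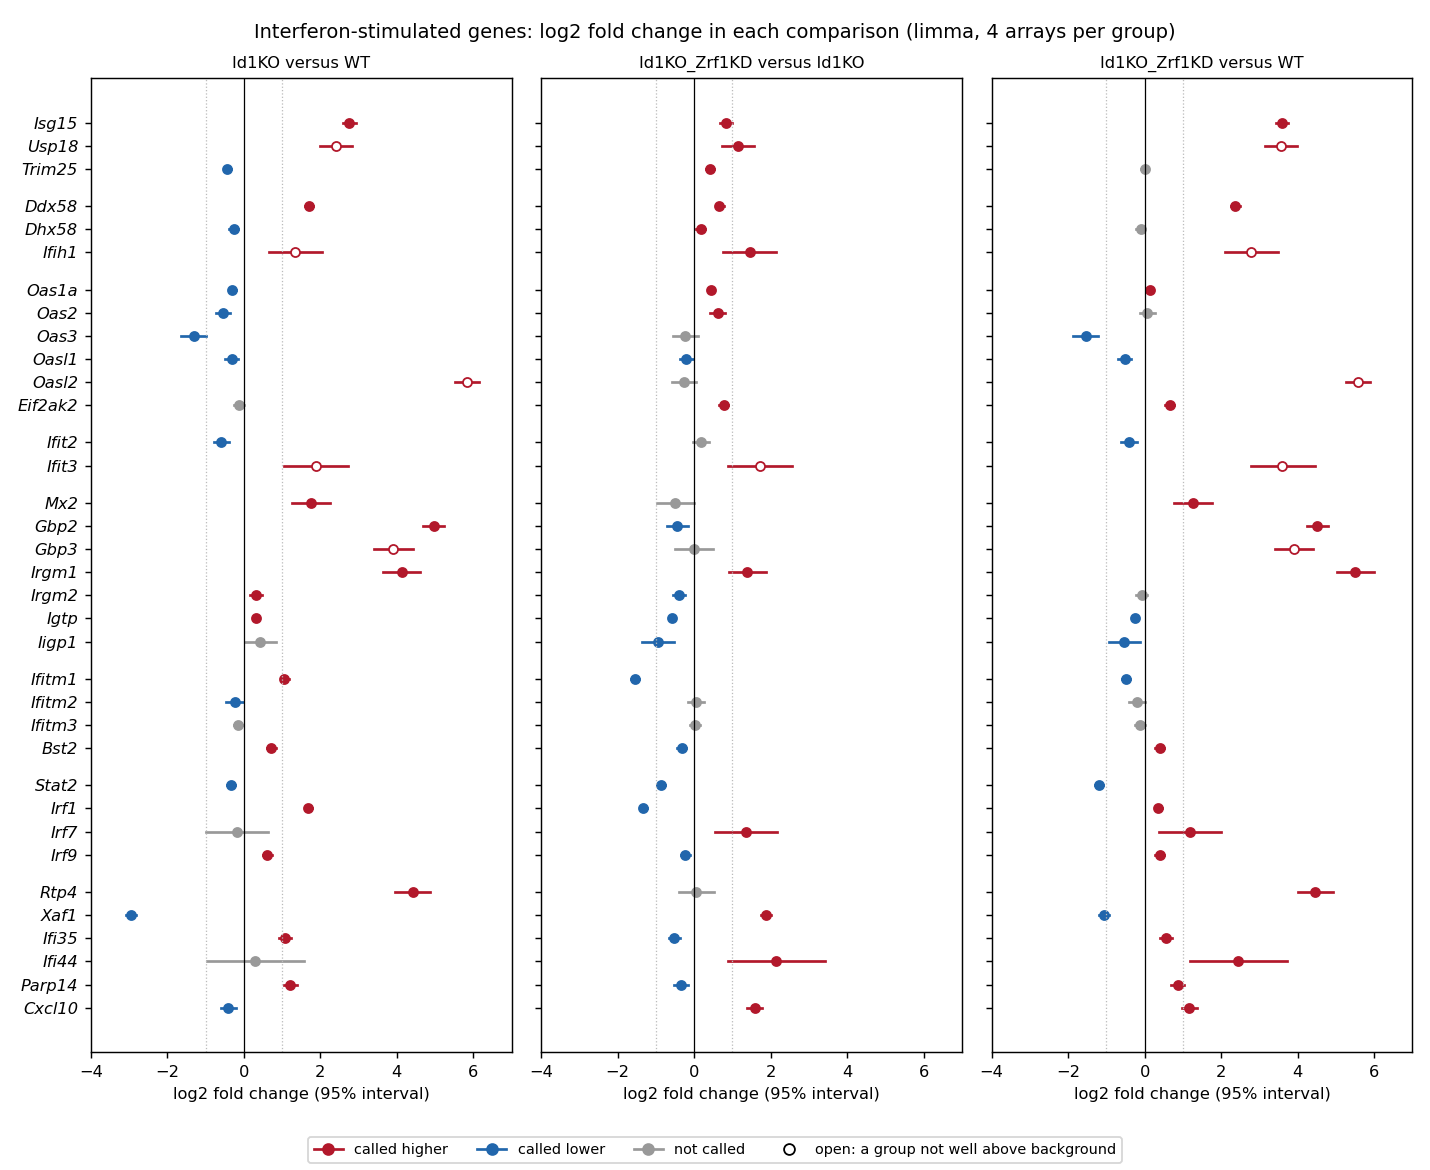
Log2 fold change (x axis) of each tested gene with its 95% interval from the limma fit, for Id1KO against WT, Id1KO_Zrf1KD against Id1KO and Id1KO_Zrf1KD against WT. Red points were called higher, blue points lower and grey points neither, and open points mark genes with a group not well above background, for which the text gives a lower bound or, for Ifit3 in Id1KO against WT, no fold. Fitted values reach 5.84 for Oasl2 in Id1KO against WT, and the range in Id1KO_Zrf1KD against Id1KO is -1.55 to 2.15.

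The promoters of these genes were examined for the 2 elements named above, since these carry the interferon response. RefSeq promoter windows (GRCm38.p6, 250 bases before to 50 bases after the gene start) were matched by symbol for 29 of the 37 genes, 4 of them with 2 windows. The ISRE core was searched as GAAANNGAAA on both strands and the GAS as TTCNNNGAA, which reads the same on both strands. The ISRE core was present for 18 of 29 genes (62.1%, exact binomial 95% interval 42.3% to 79.3%) and for 3.99% of all 27025 genes in the table. The GAS was present for 9 of 29 (31% against 9.55%), and 2 ISRE matches overlapped a GAS. With only the bases before the gene start, the ISRE shares were 48.3% and 3.46%. A match describes letters and is not a shown binding site, and no match says only that these letters are not in the window.

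The 200 bases before the gene start are shown for 6 genes, 5′ to 3′ on the strand of the gene, with ISRE core matches in capitals. Isg15, Gbp2 and Irgm1 carry the core near the start and were higher in both mutant groups than in WT, Ifit3 carries 2 cores and was measurable in Id1KO_Zrf1KD alone, Oas3 carries a core and was lower in both mutant groups, and Oasl2, higher in both mutant groups, has no core in the window.
Isg15, chr4:156200819-156201018 (minus strand): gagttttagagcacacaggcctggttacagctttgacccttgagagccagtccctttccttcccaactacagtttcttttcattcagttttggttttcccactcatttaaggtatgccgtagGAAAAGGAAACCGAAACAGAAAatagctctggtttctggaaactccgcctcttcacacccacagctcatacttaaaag
Gbp2, chr3:142620463-142620662 (plus strand): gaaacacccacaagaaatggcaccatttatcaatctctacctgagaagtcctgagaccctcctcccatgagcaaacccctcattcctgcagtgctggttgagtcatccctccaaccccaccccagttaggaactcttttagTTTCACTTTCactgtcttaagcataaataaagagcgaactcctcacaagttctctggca
Irgm1, chr11:48871421-48871620 (minus strand): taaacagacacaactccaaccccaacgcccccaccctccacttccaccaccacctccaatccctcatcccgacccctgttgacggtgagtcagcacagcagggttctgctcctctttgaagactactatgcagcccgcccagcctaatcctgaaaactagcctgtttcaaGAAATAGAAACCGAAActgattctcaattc
Ifit3, chr19:34583329-34583528 (plus strand): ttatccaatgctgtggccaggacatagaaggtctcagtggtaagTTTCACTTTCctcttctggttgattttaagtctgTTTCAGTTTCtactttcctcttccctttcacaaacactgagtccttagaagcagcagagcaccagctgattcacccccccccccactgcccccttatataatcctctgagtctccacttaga
Oas3, chr5:120777660-120777859 (minus strand): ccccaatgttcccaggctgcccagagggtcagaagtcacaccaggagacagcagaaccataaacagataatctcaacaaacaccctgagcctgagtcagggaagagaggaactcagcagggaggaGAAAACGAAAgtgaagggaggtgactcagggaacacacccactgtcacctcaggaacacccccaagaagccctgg
Oasl2, chr5:114896734-114896933 (plus strand): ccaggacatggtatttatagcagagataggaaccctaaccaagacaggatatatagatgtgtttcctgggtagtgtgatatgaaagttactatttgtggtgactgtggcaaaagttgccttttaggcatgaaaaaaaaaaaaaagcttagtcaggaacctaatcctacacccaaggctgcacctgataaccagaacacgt

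In Isg15 the matches merge into 1 run, from 78 bases before the start to a last match that begins 66 bases before it. In Gbp2 the match begins 59 bases before the start, in Irgm1 the nearer of 2 begins 24 bases before it, in Oas3 it begins 75 bases before it, and in Ifit3 the matches begin 156 and 122 bases before it. Of the 17 tested genes with a core, 10 were higher and 5 lower in Id1KO than in WT, and of the 11 without one 5 were higher and 4 lower, beside 42.5% and 29.6% of all genes. In Id1KO_Zrf1KD against Id1KO these counts were 8 higher and 5 lower with a core and 4 higher and 5 lower without, beside 32.3% and 39.8% of all genes. In Id1KO_Zrf1KD against WT they were 11 higher and 3 lower with a core and 6 higher and 4 lower without, beside 32.4% and 32.2% of all genes. Ifih1, Ifit3, Gbp2, Gbp3 and Irgm1, with a core, and Oasl2 and Ifi44, without one, passed the filter only through mutant groups. The counts therefore support nothing by themselves, and the difference between genes with and without the core was not tested.

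**Figure D3:**
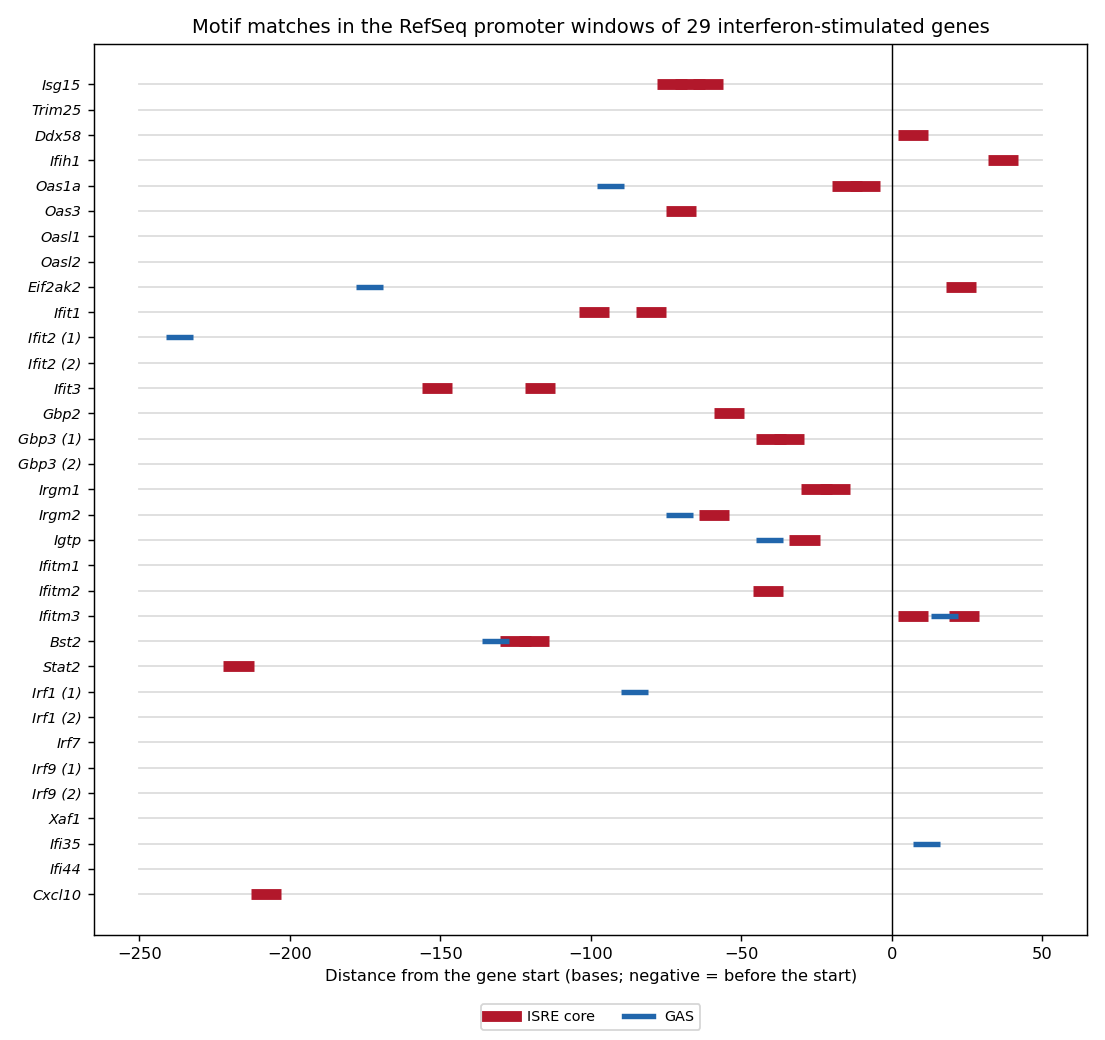
Positions of motif matches in the promoter windows of 29 interferon-stimulated genes (x axis, bases from the gene start, negative before it; rows, genes, with a number where a gene has 2 windows). Red marks are ISRE cores and blue marks GAS matches. Cores of 10 genes begin within 100 bases before the start.

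The ISG15 system attaches the ubiquitin-like protein ISG15 to other proteins. Isg15 encodes that modifier, and it was higher in each mutant group. Its levels were 1.78, 1.83, 1.68 and 1.80 on the Id1KO_Zrf1KD arrays, 0.83, 0.99, 0.84 and 1.11 on the Id1KO arrays and -1.84, -1.89, -1.88 and -1.67 on the WT arrays. The groups did not overlap, with Id1KO_Zrf1KD highest and WT lowest. Isg15 was 6.79-fold higher in Id1KO than in WT (log2 fold change 2.76 ± 0.07, SE, n = 4 per group; adjusted p = 1.2e-10) and 1.78-fold higher in Id1KO_Zrf1KD than in Id1KO (adjusted p = 1.6e-06). A dimmer second probe, not well above background in WT, gave log2 fold changes of 2.78 and 1.04. Here and below, adjusted p values are from limma with Benjamini-Hochberg adjustment over all genes tested. Usp18, the protease that removes ISG15 from its targets, had levels of -1.80, -1.87, -1.63 and -1.83 on the Id1KO_Zrf1KD arrays, -2.86, -2.92, -2.89 and -3.05 on the Id1KO arrays and -5.55, -4.92, -5.94 and -4.97 on the WT arrays. No WT array was well above background, so the increase of Id1KO over WT is at least 4.18-fold (adjusted p = 5.6e-07). Here "at least" sets WT at the lowest signal well above background of any probe on the array or at its own signal, whichever is higher. The smallest fold under the other scalings (quantile, deposited values and normexp) was 1.47, so such bounds hold only for the scaling used here. In Id1KO_Zrf1KD, Usp18 was 2.22-fold higher than in Id1KO (adjusted p = 2.5e-04; smallest fold 1.46). Trim25, a ubiquitin ligase that activates the sensor RIG-I, had levels of 5.90, 5.86, 5.90 and 5.87 on the Id1KO_Zrf1KD arrays, 5.47, 5.45, 5.51 and 5.42 on the Id1KO arrays and 5.91, 5.80, 5.99 and 5.85 on the WT arrays. It was 1.34-fold lower in Id1KO than in WT (adjusted p = 5.9e-06) and 1.34-fold higher in Id1KO_Zrf1KD than in Id1KO (adjusted p = 6.9e-06). Its other probe, in a fit over all kept probes, gave log2 fold changes of -0.12 (adjusted p = 0.151) and 0.42 (adjusted p = 2.6e-04), and 0.30 in Id1KO_Zrf1KD against WT (adjusted p = 0.0030), where the brighter probe gave no call.

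The cytosolic RNA sensors start interferon production. Ddx58, which encodes RIG-I, was 3.26-fold higher in Id1KO than in WT (mean level 0.81 ± 0.05 against -0.90 ± 0.08, SD, n = 4; adjusted p = 1.7e-10). It was a further 1.58-fold higher in Id1KO_Zrf1KD, at 1.47 ± 0.05, than in Id1KO (adjusted p = 3.0e-07), and the 3 groups did not overlap. A dimmer second probe gave 0.46 for the last difference (adjusted p = 0.103). Ifih1, which encodes the sensor MDA5 of long double-stranded RNA, had levels of -2.79, -3.07, -2.85 and -3.11 on the Id1KO_Zrf1KD arrays, -4.32, -3.92, -4.16 and -5.20 on the Id1KO arrays and -4.85, -5.93, -6.08 and -6.12 on the WT arrays. WT was at background and Id1KO was well above it on 3 of 4 arrays. The increase was at least 1.69-fold in Id1KO over WT (adjusted p = 0.0025) and 2.73-fold in Id1KO_Zrf1KD over Id1KO (adjusted p = 0.0016). Such folds of dim genes depend on the scaling: at their smallest they were 1.12-fold and 1.29-fold. Dhx58, which encodes LGP2, a regulator of both sensors, had levels of -2.0, -2.22, -2.17 and -2.24 on the Id1KO_Zrf1KD arrays, -2.27, -2.28, -2.36 and -2.38 on the Id1KO arrays and -2.04, -2.03, -2.04 and -2.10 on the WT arrays. It was 1.21-fold lower in Id1KO than in WT (adjusted p = 0.0012) and 1.12-fold higher in Id1KO_Zrf1KD than in Id1KO (adjusted p = 0.020), differences that were lost with the normexp correction (adjusted p = 0.118 and 0.764).

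The OAS family and PKR respond to double-stranded RNA, OAS enzymes by making the oligoadenylates that activate RNase L and PKR by halting translation. Of the 6 genes of this role, 1, Oasl2, was higher in Id1KO than in WT and 4 were lower (16.7% and 66.7%), beside 42.5% and 29.6% of all genes. Oasl2, an OAS-like protein, had levels of -1.45, -1.61, -1.61 and -1.48 on the Id1KO_Zrf1KD arrays, -1.08, -1.17, -1.19 and -1.65 on the Id1KO arrays and -7.02, -7.08, -7.47 and -6.87 on the WT arrays. It was clearly measured in both mutant groups and on no WT array. It was at least 14.7-fold higher in Id1KO than in WT (adjusted p = 6.7e-11) and at least 12.3-fold higher in Id1KO_Zrf1KD (adjusted p = 7.3e-11). The smallest folds under the other scalings were 4.07 and 3.76. Id1KO_Zrf1KD and Id1KO overlapped for this gene (log2 fold change -0.26, 95% interval -0.58 to 0.05; adjusted p = 0.118). Oasl1, the neighbouring gene and a translational repressor of Irf7, had levels of -0.78, -0.94, -0.95 and -1.07 on the Id1KO_Zrf1KD arrays, -0.79, -0.58, -0.80 and -0.74 on the Id1KO arrays and -0.42, -0.48, -0.28 and -0.49 on the WT arrays. It was 1.24-fold lower in Id1KO than in WT (adjusted p = 0.0032) and 1.43-fold lower in Id1KO_Zrf1KD than in WT (adjusted p = 1.0e-04). The starts of Oasl2 and Oasl1 lie 26.3 kb apart on chromosome 5 (GRCm38.p6), and the genes differed in direction.

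Oas3, the OAS enzyme that prefers long double-stranded RNA, had levels of -2.52, -2.37, -3.00 and -3.04 on the Id1KO_Zrf1KD arrays, -2.62, -2.38, -2.54 and -2.48 on the Id1KO arrays and -1.01, -1.14, -1.32 and -1.30 on the WT arrays. It was highest in WT, 2.48-fold lower in Id1KO (adjusted p = 9.1e-06) and 2.91-fold lower in Id1KO_Zrf1KD (adjusted p = 2.9e-06). Oas2, a further oligoadenylate synthetase, had levels of -0.43, -0.29, -0.25 and -0.39 on the Id1KO_Zrf1KD arrays, -0.93, -0.80, -1.16 and -0.91 on the Id1KO arrays and -0.49, -0.51, -0.22 and -0.43 on the WT arrays. Oas1a, a small member of the family, had levels of 3.20, 3.29, 3.23 and 3.26 on the Id1KO_Zrf1KD arrays, 2.78, 2.82, 2.78 and 2.86 on the Id1KO arrays and 3.11, 3.08, 3.17 and 3.08 on the WT arrays. Both were lowest in Id1KO, with no overlap with the other groups. Oas2 was 1.45-fold lower in Id1KO than in WT (adjusted p = 1.8e-04) and 1.52-fold higher in Id1KO_Zrf1KD than in Id1KO (adjusted p = 7.3e-05), and Oas1a was 1.23-fold lower (adjusted p = 4.4e-05) and 1.35-fold higher (adjusted p = 2.0e-06). Mouse Oas1 genes are close copies, so the Oas1a probes may share signal with them. Eif2ak2, which encodes PKR, did not pass the test in Id1KO against WT (mean levels -1.23 and -1.11; adjusted p = 0.063) and was 1.71-fold higher in Id1KO_Zrf1KD, at -0.46, than in Id1KO (adjusted p = 2.9e-07).

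The IFIT proteins bind viral RNA ends and were dim throughout. Ifit3, a partner of IFIT1, had levels of -3.37, -3.17, -3.06 and -3.23 on the Id1KO_Zrf1KD arrays, -4.73, -4.56, -4.60 and -5.83 on the Id1KO arrays and -7.07, -7.07, -7.44 and -5.65 on the WT arrays. Each array of Id1KO_Zrf1KD was well above background, and no array of the other groups was. Ifit3 was at least 2.63-fold higher in Id1KO_Zrf1KD than in Id1KO (adjusted p = 0.0017; smallest fold under the other scalings 1.27) and at least 3.86-fold higher than in WT (adjusted p = 7.0e-06). The limma fit also called it higher in Id1KO than in WT (adjusted p = 9.5e-04), but both groups lay below background and no fold is given. Mouse Ifit3 has a close copy, Ifit3b, which may add to the signal. Ifit2, a family member that promotes cell death, had levels of -3.02, -3.16, -2.98 and -3.08 on the Id1KO_Zrf1KD arrays, -3.01, -3.19, -3.25 and -3.51 on the Id1KO arrays and -2.63, -2.60, -2.66 and -2.70 on the WT arrays. It was 1.51-fold lower in Id1KO than in WT (adjusted p = 1.1e-04) and 1.33-fold lower in Id1KO_Zrf1KD (adjusted p = 0.0018), so that the gene 32.8 kb from Ifit3 on chromosome 19 differed from it in direction.

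Guanylate-binding proteins and immunity-related GTPases attack the vacuoles of intracellular microbes. In Id1KO 6 of the 7 tested genes of this role were higher than in WT and none was lower, beside 42.5% and 29.6% of all genes. The 4 that rose at least 2-fold, Gbp2, Gbp3, Irgm1 and Mx2, were not well above background on all WT arrays and passed the filter through the mutant groups, so their count supports nothing by itself. Gbp2 had levels of -0.27, -0.33, -0.37 and -0.14 on the Id1KO_Zrf1KD arrays, 0.14, 0.06, 0.26 and 0.20 on the Id1KO arrays and -4.69, -4.64, -4.62 and -5.23 on the WT arrays. WT was well above background on 1 array and lay far below both mutant groups. The fitted difference of Gbp2 in Id1KO over WT was 31.1-fold (adjusted p = 7.7e-11), a size that rests on WT arrays mostly not well above background, and the smallest fold under the other scalings was 7.33. Gbp2 was 1.36-fold lower in Id1KO_Zrf1KD than in Id1KO (adjusted p = 0.0073). Gbp3 had levels of -1.50, -1.42, -1.32 and -1.29 on the Id1KO_Zrf1KD arrays, -1.33, -1.24, -1.50 and -1.41 on the Id1KO arrays and -4.49, -5.69, -5.20 and -5.74 on the WT arrays. It was at least 12.9-fold higher in Id1KO than in WT (adjusted p = 4.4e-08; smallest fold 2.89), and Id1KO_Zrf1KD and Id1KO overlapped (log2 fold change -0.01, 95% interval -0.51 to 0.49). Gbp3 and Gbp2 start 60.6 kb apart on chromosome 3.

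Irgm1, a regulatory immunity-related GTPase linked to autophagy, had levels of 0.85, 0.81, 0.75 and 0.78 on the Id1KO_Zrf1KD arrays, -0.44, -0.54, -0.66 and -0.72 on the Id1KO arrays and -4.33, -4.82, -5.48 and -4.24 on the WT arrays. It differed between all groups, highest in Id1KO_Zrf1KD, and was well above background on 2 WT arrays. Irgm1 was 17.5-fold higher in Id1KO than in WT (adjusted p = 2.3e-08; smallest fold 5.14), 2.62-fold higher in Id1KO_Zrf1KD than in Id1KO (adjusted p = 1.7e-04; 2.38) and 45.7-fold higher in Id1KO_Zrf1KD than in WT (adjusted p = 2.7e-09; 12.5). Its second probe, well above background on 1 WT array, gave log2 fold changes of 3.15, 1.83 and 4.98, where the first gave 4.13, 1.39 and 5.51. Igtp, also known as Irgm3, had levels of 0.09, 0.08, 0.14 and 0.12 on the Id1KO_Zrf1KD arrays, 0.69, 0.66, 0.67 and 0.68 on the Id1KO arrays and 0.31, 0.34, 0.42 and 0.36 on the WT arrays. Irgm2, whose start lies 15.4 kb from that of Igtp on chromosome 11, had levels of -1.24, -1.36, -1.40 and -1.28 on the Id1KO_Zrf1KD arrays, -0.93, -1.09, -0.87 and -0.80 on the Id1KO arrays and -1.30, -1.17, -1.17 and -1.32 on the WT arrays. Both were highest in Id1KO. Igtp was 1.25-fold higher in Id1KO than in WT (adjusted p = 1.4e-05) and 1.48-fold lower in Id1KO_Zrf1KD than in Id1KO (adjusted p = 1.3e-07), and Irgm2 was 1.24-fold higher (adjusted p = 0.0016) and 1.32-fold lower (adjusted p = 3.1e-04). Iigp1, an effector GTPase that disrupts vacuoles, had levels of -3.10, -3.19, -3.30 and -3.37 on the Id1KO_Zrf1KD arrays, -2.69, -2.09, -2.44 and -1.93 on the Id1KO arrays and -2.54, -2.50, -3.20 and -2.62 on the WT arrays. It did not pass the test in Id1KO against WT (adjusted p = 0.059) and was 1.93-fold lower in Id1KO_Zrf1KD than in Id1KO (adjusted p = 7.5e-04; smallest fold 1.26). Its 1.44-fold lower level in Id1KO_Zrf1KD than in WT (adjusted p = 0.028) did not pass when any of 5 single arrays was left out. Mx2, a dynamin-like restriction factor, was 3.38-fold higher in Id1KO than in WT (mean level -3.07 ± 0.30 against -4.82 ± 0.45; adjusted p = 2.7e-05; smallest fold 1.28) and did not pass the test in Id1KO_Zrf1KD against Id1KO (adjusted p = 0.067).

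The membrane restriction factors, which block virus entry or release, were bright in all groups. Ifitm1, an inhibitor of virus entry known also from germ cells, had levels of 4.30, 4.24, 4.14 and 4.20 on the Id1KO_Zrf1KD arrays, 5.82, 5.73, 5.75 and 5.75 on the Id1KO arrays and 4.79, 4.69, 4.68 and 4.65 on the WT arrays. It was highest in Id1KO and lowest in Id1KO_Zrf1KD, with no overlap. Ifitm1 was 2.09-fold higher in Id1KO than in WT (adjusted p = 4.9e-09), 2.92-fold lower in Id1KO_Zrf1KD than in Id1KO (adjusted p = 4.5e-10) and 1.40-fold lower in Id1KO_Zrf1KD than in WT (adjusted p = 3.5e-06). Bst2, which encodes tetherin, had levels of 4.44, 4.51, 4.53 and 4.54 on the Id1KO_Zrf1KD arrays, 4.83, 4.78, 4.87 and 4.86 on the Id1KO arrays and 4.06, 4.18, 4.19 and 4.02 on the WT arrays. It was 1.65-fold higher in Id1KO than in WT (adjusted p = 1.5e-07) and 1.26-fold lower in Id1KO_Zrf1KD than in Id1KO (adjusted p = 9.7e-05). Ifitm2 and Ifitm3, which lie beside Ifitm1 on chromosome 7, had mean levels of 4.56 and 2.95 in Id1KO_Zrf1KD, 4.51 and 2.92 in Id1KO, and 4.75 and 3.06 in WT. Ifitm2 was called lower in Id1KO than in WT by 1.18-fold (adjusted p = 0.041), a call that was lost when any of 7 single arrays was left out, and Ifitm3 passed in none of the comparisons (adjusted p = 0.053, 0.686 and 0.123).

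The transcription factors of the pathway did not move together. Irf1, an activator that interferon-gamma induces strongly, had levels of 2.44, 2.44, 2.42 and 2.35 on the Id1KO_Zrf1KD arrays, 3.75, 3.77, 3.69 and 3.75 on the Id1KO arrays and 2.08, 2.02, 2.11 and 2.0 on the WT arrays. It was highest in Id1KO: 3.22-fold above WT (log2 fold change 1.69 ± 0.04; adjusted p = 6.3e-11), while Id1KO_Zrf1KD was 2.51-fold below Id1KO (adjusted p = 5.4e-10) and 1.28-fold above WT (adjusted p = 1.4e-05). Irf9, the DNA-binding subunit of the ISGF3 complex, had levels of 0.46, 0.42, 0.41 and 0.38 on the Id1KO_Zrf1KD arrays, 0.57, 0.67, 0.60 and 0.75 on the Id1KO arrays and 0.05, 0.11, 0.04 and -0.07 on the WT arrays. It was 1.53-fold higher in Id1KO than in WT (adjusted p = 9.1e-07) and 1.17-fold lower in Id1KO_Zrf1KD than in Id1KO (adjusted p = 0.0021). Stat2, its partner in that complex, had levels of 0.98, 0.94, 1.01 and 0.96 on the Id1KO_Zrf1KD arrays, 1.84, 1.82, 1.86 and 1.87 on the Id1KO arrays and 2.24, 2.05, 2.22 and 2.20 on the WT arrays. It was 1.26-fold lower in Id1KO than in WT (adjusted p = 6.3e-05) and 1.83-fold lower in Id1KO_Zrf1KD than in Id1KO (adjusted p = 2.6e-08), with WT highest. Irf7, the factor that amplifies interferon-alpha production, had levels of -2.86, -3.01, -3.23 and -2.83 on the Id1KO_Zrf1KD arrays, -4.85, -4.69, -3.95 and -3.86 on the Id1KO arrays and -2.95, -4.48, -4.64 and -4.62 on the WT arrays. WT replicate 1 stood apart from the other WT arrays, and 2 of 4 Id1KO arrays were well above background. Irf7 was 2.56-fold higher in Id1KO_Zrf1KD than in Id1KO (adjusted p = 0.0061; smallest fold 1.27), with adjusted p = 0.073 under the normexp correction, and did not pass the test in Id1KO against WT (adjusted p = 0.695).

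Of the other genes, Rtp4 and Xaf1 had the largest differences, in opposite directions. Rtp4, a chaperone of G-protein-coupled receptors, had levels of -0.82, -0.73, -0.75 and -0.84 on the Id1KO_Zrf1KD arrays, -0.98, -0.90, -0.64 and -0.82 on the Id1KO arrays and -5.47, -5.77, -5.20 and -4.54 on the WT arrays. The fitted difference over WT was 21.3-fold in Id1KO (adjusted p = 8.4e-09; smallest fold 4.56) and 22.0-fold in Id1KO_Zrf1KD (adjusted p = 9.2e-09; 4.80). These sizes are uncertain, since 1 of 4 WT arrays was well above background. Id1KO_Zrf1KD and Id1KO overlapped for Rtp4 (log2 fold change 0.05, 95% interval -0.41 to 0.51). Xaf1, an antagonist of the apoptosis inhibitor XIAP, had levels of 0.40, 0.24, 0.14 and 0.36 on the Id1KO_Zrf1KD arrays, -1.64, -1.64, -1.54 and -1.56 on the Id1KO arrays and 1.36, 1.39, 1.35 and 1.29 on the WT arrays. The groups did not overlap, with WT highest and Id1KO lowest. Xaf1 was 7.69-fold lower in Id1KO than in WT (log2 fold change -2.94 ± 0.06; adjusted p = 1.5e-11), 3.67-fold higher in Id1KO_Zrf1KD than in Id1KO (adjusted p = 6.2e-10) and 2.09-fold lower in Id1KO_Zrf1KD than in WT (adjusted p = 3.9e-08). Its second probe gave log2 fold changes of -2.86, 1.99 and -0.87.

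Cxcl10, a chemokine that attracts T cells, had levels of -0.20, -0.18, -0.07 and -0.10 on the Id1KO_Zrf1KD arrays, -1.64, -1.48, -1.86 and -1.87 on the Id1KO arrays and -1.33, -1.40, -1.33 and -1.16 on the WT arrays. It was 1.32-fold lower in Id1KO than in WT (adjusted p = 0.0016) and 2.98-fold higher in Id1KO_Zrf1KD than in Id1KO (adjusted p = 4.0e-08). Ifi44 had levels of -3.06, -3.31, -2.98 and -2.97 on the Id1KO_Zrf1KD arrays, -5.75, -4.24, -5.48 and -5.44 on the Id1KO arrays and -4.50, -4.49, -7.36 and -5.76 on the WT arrays. It was well above background on all Id1KO_Zrf1KD arrays, 1 Id1KO array and 2 WT arrays. The fitted difference of Id1KO_Zrf1KD over Id1KO was 4.43-fold (adjusted p = 0.0057; smallest fold 1.39), a size that rests on Id1KO arrays mostly not well above background. Ifi35 had levels of 0.52, 0.60, 0.38 and 0.46 on the Id1KO_Zrf1KD arrays, 0.87, 0.90, 1.14 and 1.11 on the Id1KO arrays and -0.11, -0.06, -0.05 and -0.09 on the WT arrays. Parp14, a mono-ADP-ribosyltransferase, had levels of -0.58, -0.55, -0.48 and -0.62 on the Id1KO_Zrf1KD arrays, -0.31, -0.26, -0.06 and -0.23 on the Id1KO arrays and -1.60, -1.45, -1.24 and -1.40 on the WT arrays. Both were highest in Id1KO: Ifi35 was 2.12-fold above WT (adjusted p = 1.0e-07) and Parp14 2.31-fold (adjusted p = 1.1e-07), and Id1KO_Zrf1KD lay 1.43-fold (adjusted p = 4.7e-05) and 1.27-fold (adjusted p = 0.0021) below Id1KO.

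In the knockdown cells 21 of the 35 genes were higher and 8 lower than in WT (60.0% and 22.9%), beside 32.4% and 32.2% of all genes. Isg15 was 12.1-fold higher in Id1KO_Zrf1KD than in WT (adjusted p = 1.2e-11), and Usp18 was at least 9.26-fold higher (adjusted p = 3.0e-08; smallest fold 2.57). The sensor genes Ddx58 and Ifih1 were 5.17-fold (adjusted p = 1.1e-11) and at least 4.6-fold higher (adjusted p = 1.2e-05; smallest fold 1.72). Of the GTPases, with WT near background, Gbp2 was by the fit 22.8-fold (adjusted p = 1.2e-10; smallest fold 5.61), Gbp3 at least 12.8-fold (adjusted p = 5.4e-08; 3.09) and Mx2 2.40-fold higher (adjusted p = 4.1e-04; 1.26). The genes just named were all also higher in Id1KO than in WT, in a comparison with the same WT arrays. Cxcl10 was 2.25-fold higher (adjusted p = 4.6e-07) and Ifi44 by the fit 5.45-fold higher (adjusted p = 0.0029; smallest fold 1.60), and Stat2 was 2.30-fold lower (adjusted p = 2.0e-09). The other genes called lower were Oas3, Oasl1, Ifit2, Igtp, Iigp1, Ifitm1 and Xaf1.

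**Figure D4:**
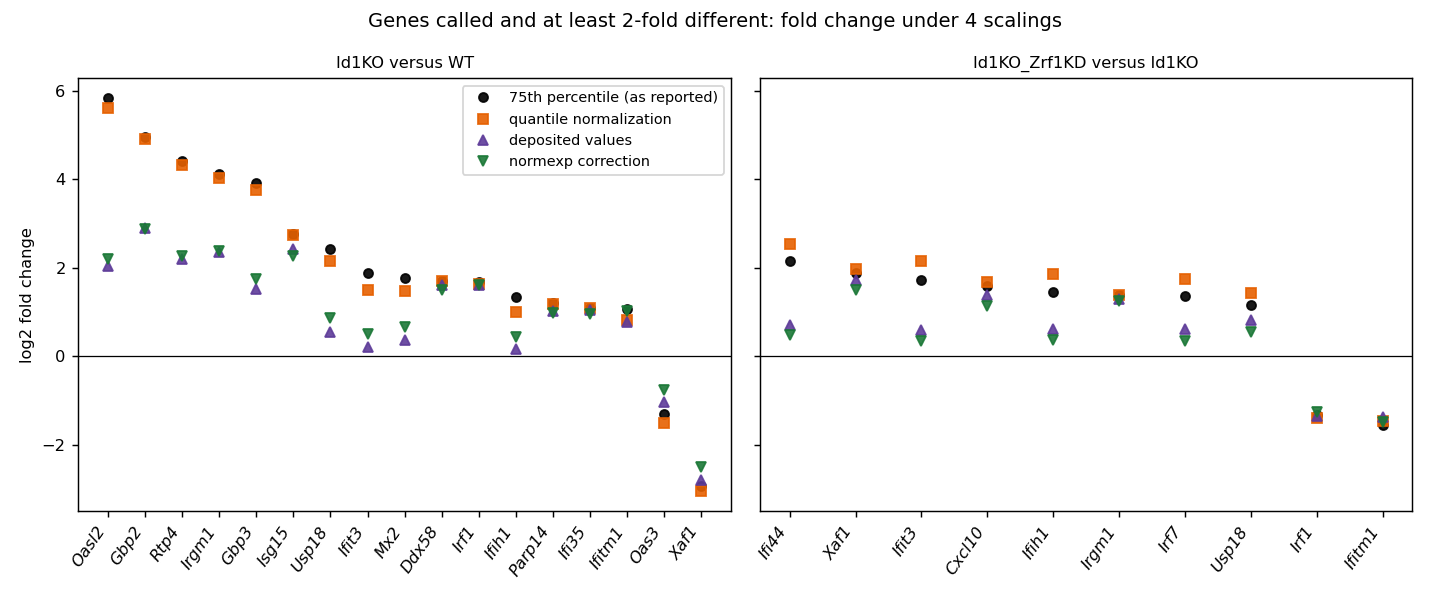
Log2 fold change (y axis) of the genes called and at least 2-fold different in Id1KO against WT (left) and in Id1KO_Zrf1KD against Id1KO (right), under the 75th percentile scaling reported here, quantile normalization, the authors' deposited values and the normexp background correction. Genes dim in 1 group, such as Oasl2 (5.84 as reported), Gbp2 (4.96) and Ifi44 (2.15), shrink under the last 2 scalings, while Xaf1, Irf1, Ddx58 and Ifitm1 move less. No point changes sign.

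The probes behind the largest differences were placed by the files on mm9. The Oasl2 probe lay on chromosome 5 at 115362168 to 115362227, from base 3049 of its transcript. Those of 3 further genes lay on chromosome 3 at 142300719 to 142300778 for Gbp2, from base 2201, on chromosome 16 at 23613668 to 23613727 for Rtp4, from base 932, and on chromosome 11 at 48679069 to 48679128 for Irgm1, from base 1849. The other 2 lay on chromosome 4 at 155573649 to 155573708 for Isg15, from base 580, and on chromosome 11 at 72127175 to 72127234 for Xaf1, from base 2537. No gene annotation of that build was used here, so exon and UTR limits are not given. Of the 37 genes 10 had several probes.

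The rest of the interferon pathway was followed in a list of 95 genes, of which 90 were on the array and 71 were tested. In Id1KO 29 were higher and 24 lower than in WT, or 40.8% and 33.8% of those tested, beside 42.5% and 29.6% of all genes, with median log2 fold changes of 0.07 and 0.15. In Id1KO_Zrf1KD 36 were higher and 18 lower than in Id1KO (50.7% and 25.4%, beside 32.3% and 39.8% of all genes; medians 0.28 and -0.09). Against WT 39 were higher and 13 lower (54.9% and 18.3%, beside 32.4% and 32.2%; medians 0.30 and -0.02). Among receptors and their kinases, 6 of 9 were lower in Id1KO than in WT and 1 was higher (66.7% and 11.1%, beside 29.6% and 42.5% of all genes). In Id1KO_Zrf1KD 7 were higher and 1 lower than in Id1KO (77.8% and 11.1%, beside 32.3% and 39.8%). Jak1, the kinase shared by all interferon receptors, was 2.0-fold lower in Id1KO (level 2.0) than in WT (3.01; adjusted p = 3.9e-09) and 1.99-fold higher in Id1KO_Zrf1KD (2.99) than in Id1KO (adjusted p = 5.4e-09). Tyk2, the second kinase of the type I receptor, had levels of 0.71 in Id1KO_Zrf1KD, 0.36 in Id1KO and 0.97 in WT, and differed in each comparison (adjusted p at most 0.0020).

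Ifnar2, a subunit of the type I receptor, had the same order, with levels of 1.06 in Id1KO_Zrf1KD, 0.61 in Id1KO and 1.37 in WT, and was 1.69-fold lower in Id1KO than in WT (adjusted p = 1.3e-06). Ifnar1, the other subunit, lay at 0.36 in Id1KO_Zrf1KD, -0.07 in Id1KO and -0.14 in WT, and was 1.35-fold higher in Id1KO_Zrf1KD than in Id1KO (adjusted p = 5.1e-05). Of the subunits of the interferon-gamma receptor, Ifngr1 was 1.39-fold higher in Id1KO than in WT (adjusted p = 5.5e-05) and Ifngr2 was 1.93-fold higher in Id1KO_Zrf1KD than in Id1KO (adjusted p = 6.3e-06). Il28ra, the receptor chain for interferon-lambda, was 2.86-fold lower in Id1KO_Zrf1KD than in Id1KO (adjusted p = 4.7e-09). Ifnb1, the interferon-beta gene, was not well above background on any array. Of the other interferon genes, chosen here after their values were seen, Ifna1 was dim but well above background on all arrays. It was 1.5-fold higher in Id1KO than in WT (level -3.42 against -4.0; adjusted p = 0.0027; smallest fold 1.04). In Id1KO_Zrf1KD, at -4.18, it was 1.70-fold lower than in Id1KO (adjusted p = 4.3e-04; smallest fold 1.05). Ifng was well above background on 3 Id1KO_Zrf1KD arrays and no other and was not tested, and Il28b passed in none of the comparisons (adjusted p = 0.103, 0.504 and 0.332). Ifna2 also passed in none of them.

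Among signalling factors, Mavs, the mitochondrial adaptor of the RNA sensors, was 3.05-fold lower in Id1KO than in WT (adjusted p = 1.1e-10) and 2.44-fold lower in Id1KO_Zrf1KD than in WT (adjusted p = 5.6e-10). Irf3, which switches on interferon-beta, was 1.35-fold higher in Id1KO than in WT (adjusted p = 3.8e-05) and 1.45-fold lower in Id1KO_Zrf1KD than in Id1KO (adjusted p = 6.9e-06). Irf5 was 3.34-fold lower in Id1KO than in WT (adjusted p = 6.3e-09), and Irf2, a repressor of interferon targets, was at least 2.01-fold lower (adjusted p = 4.2e-04; smallest fold 1.18). Ube2l6, the conjugating enzyme for ISG15, was 3.09-fold lower in Id1KO than in WT (adjusted p = 8.8e-09), where Isg15 itself rose, and 2.06-fold higher in Id1KO_Zrf1KD than in Id1KO (adjusted p = 3.5e-07).

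Effector genes of the list gave the largest differences. Psmb8, an immunoproteasome subunit, was at least 30.0-fold higher in Id1KO than in WT (adjusted p = 9.4e-10; smallest fold 7.32) and 2.10-fold lower in Id1KO_Zrf1KD than in Id1KO (adjusted p = 2.3e-04). Psmb10, a further subunit, was 2.33-fold lower in Id1KO_Zrf1KD than in Id1KO (adjusted p = 5.8e-09). The GTPases Tgtp2 and Gbp4 were at least 12.1-fold (adjusted p = 8.7e-09; smallest fold 2.64) and at least 6.15-fold (adjusted p = 6.5e-08; 1.91) higher in Id1KO than in WT, and Gbp4 was 3.19-fold lower in Id1KO_Zrf1KD than in Id1KO (adjusted p = 4.4e-05). In Id1KO_Zrf1KD, Lgals3bp, a secreted glycoprotein, was 8.69-fold higher than in Id1KO (adjusted p = 2.6e-11; 1 Id1KO_Zrf1KD array had no value). The DNA-sensor family genes Ifi204 and Ifi203 were 4.81-fold (adjusted p = 0.0030; smallest fold 2.40) and at least 1.70-fold (adjusted p = 6.2e-05; 1.08) higher in Id1KO_Zrf1KD than in Id1KO, and Ifi203 did not pass with the normexp correction (adjusted p = 0.347). Tgtp2 and the Ifi200 genes have close copies, so their probes may share signal.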

How the data were processed

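Total RNA of 12 mouse embryonic stem cell samples was measured on single-colour (Cy3) Agilent arrays of 62976 spots, 1 array per sample. Per the file headers, the scanner files come from Agilent Feature Extraction 10.7.3.1 and hold intensity values: the raw mean and background median signal, and a processed signal with spatial and multiplicative detrending within the array. Other deposited columns hold flags of 0 or 1. The authors' deposited values, in a series-wide file, are log2 values with equal medians of 6.55 in all columns. Their background correction, normalization and centring are not given in the sources used here. Each column matched the scanner file of its own sample best (12 of 12).

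Log2 of the processed signal minus the array's 75th percentile over non-control spots was averaged over the spots of a probe that were not flagged as outliers. Folds of dim genes depend most on how background is treated. A probe was kept when at least 50% of its spots were well above background on all 4 arrays of at least 1 group (30885 probes), and the brightest stood for its gene name (22593 genes). Groups were compared with limma 3.58.1 (R 4.3.3, data.table package version 1.17.8), 1 fit with 3 group means, two-sided, Benjamini-Hochberg adjusted within each comparison at 0.05. Within this scaling, a fold is given as a lower bound if no array of 1 compared group was well above background. On simulated data for Id1KO against WT (22593 genes), 64% of 50 genes with a log2 change of 1 and 94% of 50 with a change of 2 were recovered. Far fewer genes were changed in the simulation than were called in the data, so these shares need not hold for the reported test.

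The 37 genes, the pathway list, the roles and the markers were chosen with earlier results of these data known. Values per array are given for up to 8 genes per direction and comparison and for genes whose comparisons point in opposite directions. Of the pathway list, the 3 largest changes per direction and comparison and a few set genes are named, of which 1 is not reported here. Alternatives were normexp (offset 50) background correction, quantile normalization, deposited values, no dim filter, the mean of probes, flagged spots kept, slide or replicate block, only the compared groups, and each array left out. "Smallest fold" is the least under normexp, quantile and deposited values.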

Additional observations from a re-analysis of the deposited data

Results flagged for a closer look

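In 3 of 99 combinations of gene and group (3.03%), 1 array stood apart from the other 3 by Dixon's criterion, and chance alone marks about 1 in 20. Gbp2 in WT replicate 4 had a level of -5.23, where the nearest WT array had -4.69. Iigp1 in WT replicate 3 had -3.20, with the nearest at -2.62. Irf7 in WT replicate 1 had -2.95, with the nearest at -4.48. All 3 genes were dim in WT.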

How the results depend on the processing

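Of 2205 member values recomputed under the alternatives, 2141 kept direction and side of the threshold, 33 passed it only there, 30 no longer passed it and 1 changed sign: Trim25 in Id1KO_Zrf1KD against WT was 0.15 (adjusted p = 0.018) with the mean of its probes. With normexp, the genes at least 2-fold higher and lower in Id1KO than in WT numbered 9 and 1, and those at least 2-fold higher in Id1KO_Zrf1KD numbered 3 against Id1KO and 8 against WT; with the deposited values these last counts were 3 and 8. Only genes measurable on all 12 arrays, a setting chosen after seeing the data, left 10, 9 and 10 higher calls in Id1KO against WT, Id1KO_Zrf1KD against Id1KO and Id1KO_Zrf1KD against WT, by construction from fewer genes. Calls lost without 1 array or in other settings were those of Ifitm2, Oasl1, Dhx58, Iigp1, Oas1a, Irf7 and Ifit2. Without single arrays, higher and lower calls ranged from 19 to 20 and 10 to 12 in Id1KO against WT, 14 to 16 and 11 to 13 in Id1KO_Zrf1KD against Id1KO, and 21 to 21 and 7 to 9 in Id1KO_Zrf1KD against WT. The replicate numbers did not pair the arrays (median correlation of same-numbered deviations -0.20), and with the replicate block the counts were 19 and 10, 15 and 11, and 21 and 8. Deviations were more alike on the same slide (median correlation 0.24) than on other slides (-0.18), and the reported fit has no slide term. With the slide block the counts were 20 and 12, 15 and 12, and 21 and 10. Signal near background limits the folds of Oasl2, Gbp2, Gbp3, Irgm1, Rtp4, Usp18, Ifih1, Ifit3, Mx2 and Ifi44.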
